A study of Mus musculus with 78 samples.

Results

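The transcription factors OCT4, SOX2 and NANOG, encoded by Pou5f1, Sox2 and Nanog, were followed across the nascent RNA, mRNA and chromatin data of mouse embryonic stem cells (mESCs) in which TRIM28 had been degraded. The genes were taken by name and were 3 of the 54446 genes in the RNA-seq tables and 3 of the 54435 genes in the nascent RNA table. In the coordinates of the tables (mm10) Pou5f1 (ENSMUSG00000024406.16) lay at chr17:35506018-35510772, Sox2 (ENSMUSG00000074637.7), a gene of 1 exon, at chr3:34650405-34652461, and Nanog (ENSMUSG00000012396.12) at chr6:122707489-122714633, all on the plus strand. The cells were V6.5 mESCs carrying a degradation-sensitive FKBP tag, with mRuby2, at the N-terminus of TRIM28, grown from picked colonies, kept in serum and LIF on irradiated fibroblast feeders and seeded without feeders before treatment. TRIM28 was degraded with the compound dTAG-13, and the vehicle DMSO, added 24 h before collection, served as control for every time point, the 96 h one included. Nascent RNA was measured by TT-SLAM-seq, which sequences RNA labeled in a short pulse of 4-thiouridine, in 3 libraries each of DMSO and of 2 h, 6 h and 24 h of dTAG-13. Polyadenylated RNA was sequenced in 3 libraries each of DMSO and of dTAG-13 for 2 h, 6 h, 24 h and 96 h. Further libraries, 3 a group, came from untreated parental mESCs that lack the tag and from DMSO-treated neural progenitors (NPCs). Total RNA was sequenced in 3 libraries each of DMSO, dTAG-13 and Dox with dTAG-13 in a tagged line carrying hairpins against endogenous retroviruses (ERVs) that doxycycline (Dox) induces, kept on feeders. The protocol labels of that line mention a Dox pre-treatment in all 3 of its groups, so the groups follow the sample titles. Chromatin was profiled after DMSO or 24 h of dTAG-13 by ChIP-seq, in 3 and 3 libraries for H3K27Ac, a mark of active enhancers and promoters, 3 and 3 for H3K9me3, a heterochromatin mark, 2 and 2 for RNA polymerase II (RNAPII) and 2 and 2 for MED23, a Mediator subunit. No label says whether replicates came from separate cultures, so the p-values measure the spread between these libraries, which may be technical.

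OCT4 is a POU-domain factor and SOX2 an HMG-box factor that bind DNA side by side at composite sites. Together with the homeodomain factor NANOG they occupy the enhancers of pluripotency genes, their own among them, and recruit Mediator and RNAPII there. Large clusters of such sites in mESCs are known as super-enhancers. OCT4 is lost when mESCs differentiate, whereas SOX2 is also a factor of neural progenitors, and NANOG varies between cells in serum. TRIM28 is a corepressor that directs H3K9me3 to ERVs.

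The DNA under the MED23 peaks at which the findings below turn is given here (GRCm38.p6, plus strand, 201 bases centered on a peak summit). Matches to the OCT4-SOX2 composite motif TTGTNATG are in capitals. Each summit is from the library with the highest enrichment in the region, DMSO replicate 2 for Pou5f1 and Sox2 and DMSO replicate 1 for Nanog. The first is the summit of the strongest MED23 peak near Pou5f1, at -0.885 kb from the gene start (chr17:35505033-35505233), the next that of the strongest peak near Sox2, at 3.68 kb (chr3:34653987-34654187), and the last the summit over the start of Nanog (chr6:122707300-122707500). That one is not the strongest near Nanog, which lay at 35.2 kb and whose window held no match to the composite motif.
Pou5f1 -0.885 kb: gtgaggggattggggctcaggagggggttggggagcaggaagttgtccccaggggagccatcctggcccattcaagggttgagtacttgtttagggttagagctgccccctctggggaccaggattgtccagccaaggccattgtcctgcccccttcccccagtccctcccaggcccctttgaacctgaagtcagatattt
Sox2 3.68 kb: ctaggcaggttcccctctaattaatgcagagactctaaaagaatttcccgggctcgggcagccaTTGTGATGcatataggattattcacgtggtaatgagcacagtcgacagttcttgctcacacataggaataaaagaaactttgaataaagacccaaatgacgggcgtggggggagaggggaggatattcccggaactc
Nanog -0.089 kb: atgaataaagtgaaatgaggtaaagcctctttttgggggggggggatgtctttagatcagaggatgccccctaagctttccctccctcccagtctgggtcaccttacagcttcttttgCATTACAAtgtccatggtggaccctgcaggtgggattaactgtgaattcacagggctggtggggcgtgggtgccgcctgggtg
The Sox2 window held TTGTGATG from position 65, counted from the 5' end of the window, and the Nanog window held TTGTAATG on the minus strand, starting at position 119 of the plus strand. The Pou5f1 window held no match to the composite motif nor to the octamer ATGCAAAT, which says only that these letters are not in this window. Both strands were searched, and the 2 motifs can share bases. The composite motif was present in 3.37% of 32851 RefSeq promoters, in 4.93% and 5.02% of the 201-base windows at all MED23 summits of the DMSO libraries, and in 7.45% and 7.70% of those of the dTAG-13 libraries. The octamer was present in 1.74% of the promoters. Of the MED23 summits within 50 kb, 1 of 16 near Pou5f1, 2 of 15 near Sox2 and 2 of 16 near Nanog held either motif, against 8.15% and 8.28% of all DMSO summits.

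Depth was uneven across the nascent RNA libraries. Their FPKM values resolved into whole reads, with scaling totals of 6481999 to 24266190 reads (median 15202337), and the gene Gm26917 took 29.3% to 35.0% of the reads in DMSO and 15.3% to 18.5% at 24 h. Between 144 and 894 reads lay behind each nascent value of the 3 genes. FPKM was scaled by the width of the gene with its introns, so nascent levels are not compared between genes. Relative coverage of the RNA-seq libraries ran from 0.341 to 1.64. Trim28 RNA, which dTAG-13 does not target, stood at 624 TPM in DMSO, 372 at 24 h and 192 at 96 h, against 1398 in the parental line, so it does not report on loss of the protein. All 3 genes passed the filter on low values in every fit (TPM of at least 1, or FPKM of at least 0.5, in 3 or more libraries). A gene was called when the limma test, adjusted over all genes that passed, fell below 0.05.

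With dTAG-13 the mRNAs of the 3 factors split at 24 h, and all 3 were lower than in DMSO at 96 h. Pou5f1 mRNA was 1163, 1181 and 1141 TPM in the DMSO libraries. It was 1117, 1064 and 1125 TPM after 2 h of dTAG-13, 838, 1004 and 866 after 6 h, then 564, 508 and 537 after 24 h, and 93.7, 97.1 and 116 after 96 h. Every library from 6 h on lay below every DMSO library, with no overlap between 6 h, 24 h and 96 h. Pou5f1 fell by 0.37 on the log2 scale at 6 h (SE 0.0768, limma adjusted p = 0.00262), by 1.11 at 24 h (2.17-fold lower, adjusted p = 1.94e-08) and by 3.51 at 96 h (11.4-fold lower, adjusted p = 2.28e-14). At 24 h, 1.55% of all genes tested had a lower change. In bulk RNA, fewer cells that express a gene and less RNA per cell cannot be told apart.

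Sox2 mRNA was 212, 206 and 195 TPM under DMSO, then 201, 187 and 196 TPM after 2 h, 179, 178 and 181 after 6 h, then 146, 126 and 122 after 24 h, and 21.9, 19.7 and 21.2 after 96 h. The groups stepped down in the same order as for Pou5f1, and DMSO and 2 h overlapped. Sox2 fell by 0.64 at 24 h (SE 0.0610, 1.56-fold lower, limma adjusted p = 4.56e-07) and by 3.26 at 96 h (9.56-fold lower, adjusted p = 5.73e-15). Its fall by 0.19 at 6 h passed the test narrowly (adjusted p = 0.0300) and missed it when any 1 of 5 libraries was left out (adjusted p = 0.108 and 0.0813 without DMSO replicates 1 and 2, and 0.0627, 0.0675 and 0.0614 without 6 h replicates 1, 2 and 3) and with no filter on low values (adjusted p = 0.0722).

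Nanog mRNA took the opposite direction at 24 h. It was 135, 142 and 132 TPM under DMSO, then 147, 127 and 132 TPM after 2 h, 129, 126 and 119 after 6 h, then 208, 198 and 191 after 24 h, and 30.1, 33.5 and 35.4 after 96 h. The 24 h libraries were the highest of the time course and the 96 h libraries the lowest, with no overlap with DMSO in either case. Nanog rose by 0.54 at 24 h (SE 0.0635, 1.46-fold, limma adjusted p = 3.56e-06), then fell to 2.03 below DMSO at 96 h (log2 change -2.03, 4.09-fold lower, adjusted p = 7.37e-13). From 24 h to 96 h the log2 change was -2.58 for Nanog (5.96-fold lower, adjusted p = 1.22e-13), -2.61 for Sox2 (6.12-fold lower) and -2.39 for Pou5f1 (5.25-fold lower).

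**Figure D1:**
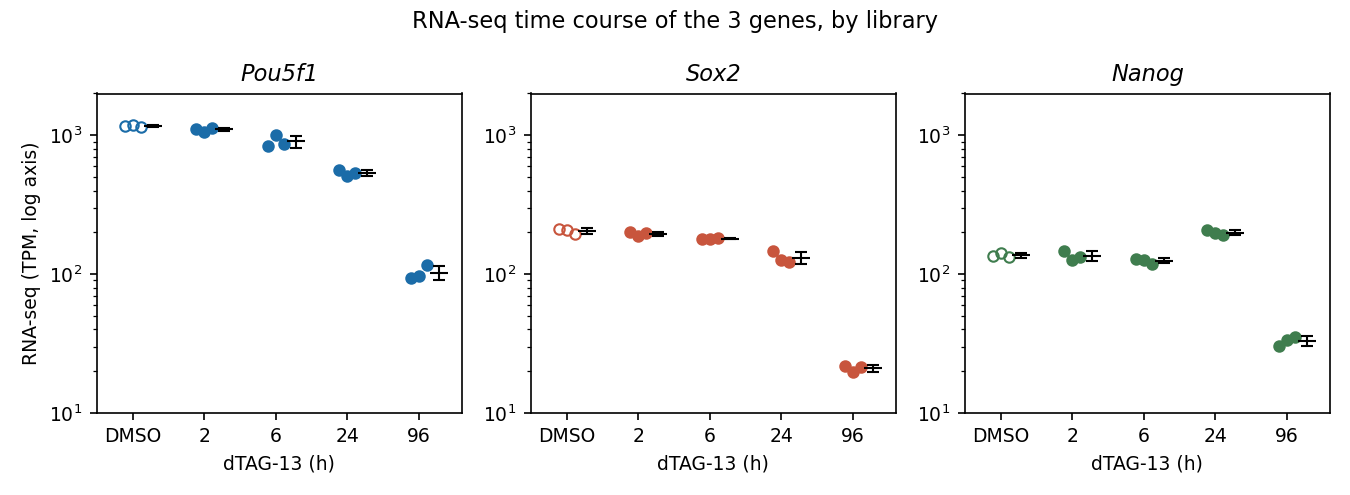
RNA-seq levels of Pou5f1, Sox2 and Nanog (TPM, logarithmic y axis) in each library of the dTAG-13 time course (x axis, DMSO and hours of dTAG-13), with points for libraries, open for DMSO, and bars for the mean ± SD of 3 libraries. At 24 h Pou5f1 (508 to 564 TPM) and Sox2 (122 to 146) lay below DMSO and Nanog (191 to 208) above it, and at 96 h all 3 genes were at their lowest.

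Against the background, 0 of the 3 genes were called at 2 h, when 15.3% of 17922 genes were, with log2 changes of -0.08 (Pou5f1), -0.07 (Sox2) and -0.01 (Nanog) and limma adjusted p of 0.560, 0.494 and 0.928. At 6 h 2 of 3 were called (33.9% of all genes), at 24 h 3 of 3 (67.9%), at 96 h 3 of 3 (80.3%) and between 24 h and 96 h 3 of 3 (79.4%). Since most genes were called at the late times, the count of members says little beyond the sizes. The median gene stood at a log2 change of 0.13 at 24 h and 0.05 at 96 h. Nanog at 6 h missed the test (log2 change -0.13, adjusted p = 0.136), but was called when each library was centered on its median gene (log2 change -0.22, adjusted p = 0.0150). With the same centering the rise of Nanog at 24 h passed with a smaller size (log2 change 0.25, adjusted p = 0.00281).

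The proportions of the 3 mRNAs within a library shifted with these changes. The ratio of Nanog to Pou5f1 TPM, a per-length scale, was 0.116, 0.120 and 0.116 in the DMSO libraries, 0.368, 0.390 and 0.355 after 24 h, then 0.321, 0.344 and 0.305 after 96 h. It was 3.16-fold higher at 24 h and 2.76-fold higher at 96 h, with no overlap. The ratio of Nanog to Sox2 went from 0.635, 0.687 and 0.678 under DMSO to 1.42, 1.58 and 1.57 after 24 h, then 1.37, 1.70 and 1.67 after 96 h, so Nanog passed Sox2 in level. Sox2 over Pou5f1 moved least, from 0.182, 0.175 and 0.171 to 0.259, 0.247 and 0.227 after 24 h, then 0.234, 0.203 and 0.183 after 96 h. All 6 ratio comparisons had p = 0.1 by exact permutation, two-sided (3 against 3, 0.1 after adjustment), the smallest value this design can give.

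Over the 4 time points Pou5f1 and Sox2 were close to one another and Nanog stood apart. The root mean square difference of their log2 changes at 2 h, 6 h, 24 h and 96 h was 0.282 between Pou5f1 and Sox2, 0.853 between Sox2 and Nanog and 1.12 between Pou5f1 and Nanog. Among 11926 genes with a mean of at least 5 TPM, 19 were nearer to Pou5f1 than Sox2 was. The nearest to Pou5f1 were Pdzd4 (0.103), L1td1 (0.113), an RNA-binding protein gene of pluripotent cells, and Prr19 (0.147). The nearest to Sox2 were Arl14epl (0.0650), Epp13 (0.0813) and Pla2g10 (0.0886), a phospholipase gene, and to Nanog they were Plekha4 (0.0696), Camk2b (0.0799), a calmodulin-dependent kinase gene, and Sycp3 (0.121), a gene of the meiotic synaptonemal complex. The pattern that brought them near Nanog was a level above DMSO at 24 h and below it at 96 h, with log2 changes of 0.53 and -1.94 for Plekha4.

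Nascent RNA gave a different split, in which Sox2 was the member that passed the test. Sox2 nascent RNA was 23.3, 21.9 and 16.4 FPKM under DMSO, then 25.6, 26.0 and 25.8 FPKM after 2 h of dTAG-13, 17.5, 21.0 and 26.2 after 6 h, then 9.42, 9.50 and 11.8 after 24 h. Each 24 h library lay below every other library. Sox2 nascent RNA fell by 0.96 on the log2 scale at 24 h against DMSO (SE 0.174, 1.95-fold lower, limma adjusted p = 0.00204) and by 1.03 against 6 h (2.04-fold lower, adjusted p = 0.00249). At 24 h, 1.83% of all genes tested had a lower change.

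Pou5f1 nascent RNA was 4.27, 4.51 and 5.98 FPKM under DMSO, then 5.37, 6.53 and 7.25 FPKM after 2 h, 6.19, 5.55 and 5.86 after 6 h, then 4.06, 4.58 and 4.67 after 24 h. DMSO overlapped with every time point, although the 24 h libraries lay below all 2 h and 6 h libraries. Its log2 change was 0.35 at 2 h (limma adjusted p = 0.181), 0.24 at 6 h (0.290), -0.12 at 24 h (SE 0.137, 95% interval -0.43 to 0.18, adjusted p = 0.518) and -0.37 from 6 h to 24 h (0.0741). The last value was called when each library was centered on its median gene (log2 change -0.54, adjusted p = 0.0261) and without DMSO replicate 3 (adjusted p = 0.0363). Whether the nascent and mRNA changes at 24 h differ, -0.12 against -1.11, was not tested, since they come from different assays and libraries. Both also depend on the scaling. With each library centered, the median gene at 24 h moved from 0.21 to -0.03 in nascent RNA, and from 0.13 to -0.16 in RNA-seq. The changes of all genes moved down with it.

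Nanog nascent RNA was 3.07, 3.07 and 2.49 FPKM under DMSO, then 4.78, 4.80 and 5.23 FPKM after 2 h, 1.93, 3.29 and 4.09 after 6 h, then 3.68, 3.50 and 6.02 after 24 h. The 2 h and 24 h libraries all lay above DMSO, while 6 h overlapped with it, and the 24 h value of 6.02 came from the shallowest library, without which the log2 change at 24 h was 0.28. The log2 change was 0.69 at 2 h (SE 0.241, limma adjusted p = 0.141), 0.05 at 6 h (adjusted p = 0.926) and 0.51 at 24 h (95% interval -0.03 to 1.05, adjusted p = 0.126), none of which passed. In all, 0 of 3 genes were called at 2 h (3.55% of 13357 genes), 0 of 3 at 6 h (9.09%), 1 of 3 at 24 h (37.9%) and 1 of 3 between 6 h and 24 h (27.7%). With 1 library left out in turn the count of all genes called ran from 64 to 754 at 2 h (474 with all libraries) and from 180 to 1766 at 6 h (1214). The median gene stood at a log2 change of 0.21 at 24 h and at -0.03 when centered, which lowers the change of Nanog by the same amount. The mRNA and nascent RNA time points each share their DMSO libraries.

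**Figure D2:**
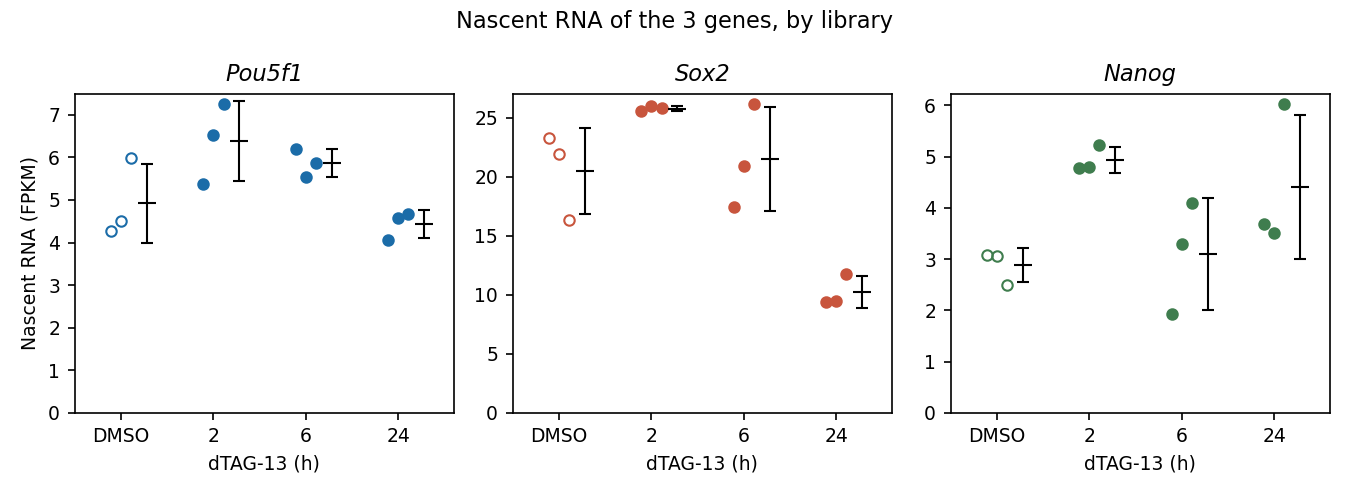
Nascent RNA of Pou5f1, Sox2 and Nanog (FPKM, each panel with its own axis from 0) in each TT-SLAM-seq library (x axis, DMSO and hours of dTAG-13), with bars for the mean ± SD of 3 libraries. The Sox2 libraries at 24 h (9.42 to 11.8 FPKM) lay below all others, and the Pou5f1 libraries at 24 h overlapped with DMSO.

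In the ERV-hairpin line all 3 mRNAs were lower with dTAG-13 and higher again when Dox was added. Pou5f1 was 383, 434 and 436 TPM in DMSO, 236, 235 and 229 with dTAG-13, and 418, 414 and 408 with Dox and dTAG-13. Sox2 was 116, 125 and 129 in DMSO, 45.3, 45.4 and 47.7 with dTAG-13, and 124, 122 and 112 with Dox and dTAG-13. Nanog was 119, 130 and 131, then 56.9, 60.7 and 63.6, and then 128, 132 and 131. For each gene the dTAG-13 libraries lay below all others, and those with Dox overlapped with DMSO.

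With dTAG-13 the log2 change was -0.84 for Pou5f1 (SE 0.0502, 1.78-fold lower, limma adjusted p = 1.55e-07), -1.41 for Sox2 (2.66-fold lower, 6.38e-09) and -1.06 for Nanog (2.09-fold lower, 3.82e-08). With Dox added to dTAG-13 it was 0.82 for Pou5f1 (1.77-fold, adjusted p = 2.06e-07), 1.36 for Sox2 (2.57-fold, 7.56e-09) and 1.10 for Nanog (2.15-fold, 3.17e-08). All 3 genes were called in both comparisons, in which 54.0% and 46.8% of 16166 genes were, and which share the dTAG-13 libraries. Between 0.705% (Sox2) and 2.27% (Pou5f1) of genes had a lower change with dTAG-13. The hairpins were induced by Dox, and no library with Dox but without hairpins is analysed here, so Dox and the hairpins cannot be told apart.

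**Figure D3:**
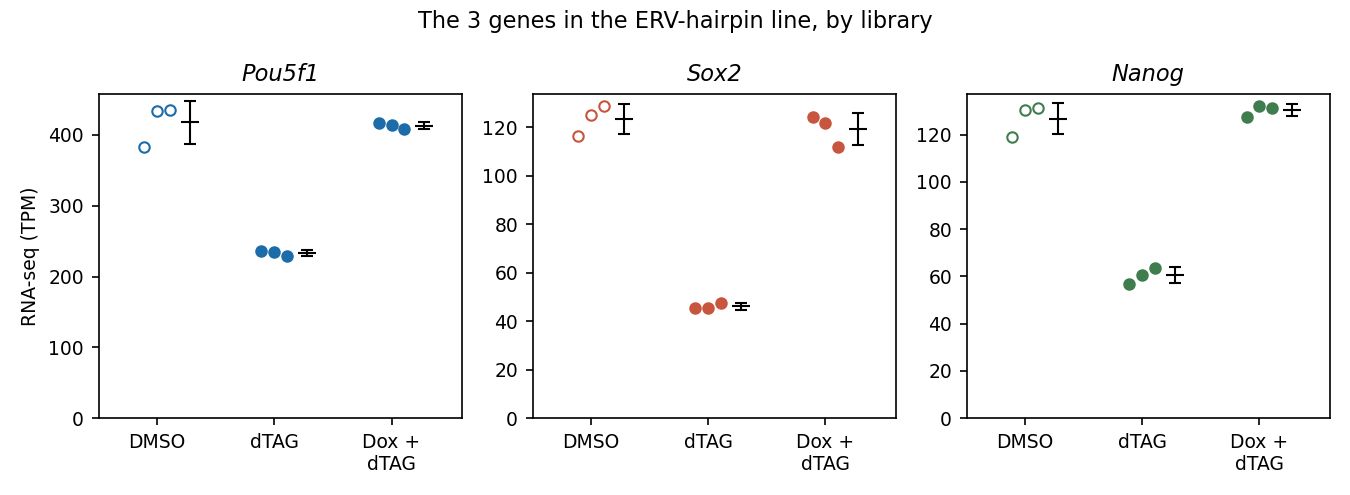
RNA-seq levels of Pou5f1, Sox2 and Nanog (TPM, each axis from 0) in each library of the ERV-hairpin line under DMSO, dTAG-13 and Dox with dTAG-13 (x axis), with bars for the mean ± SD of 3 libraries. For each gene the dTAG-13 libraries were lowest (229 to 236 TPM for Pou5f1), and the Dox libraries lay in the range of DMSO or overlapped with it.

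The response to dTAG-13 differed between this line and the time course. Nanog rose at 24 h in the time course and fell in the hairpin line, an interaction of -1.61 on the log2 scale (limma adjusted p = 2.03e-07). The fall of Sox2 was larger in the hairpin line, by an interaction of -0.77 (adjusted p = 3.18e-05), and that of Pou5f1 smaller, by 0.28 (adjusted p = 0.00936). All 3 genes were called, as were 51.4% of 17653 genes. The line, the feeders and the RNA fraction sequenced (total against polyadenylated) differ between the 2 experiments and cannot be told apart here. The summed level of 8 feeder fibroblast markers was 102 to 121 TPM over all libraries of the hairpin line, against 21.5 to 22.2 in DMSO and 26.5 to 28.9 at 24 h in the time course, and its part in the difference was not tested.

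**Figure D4:**
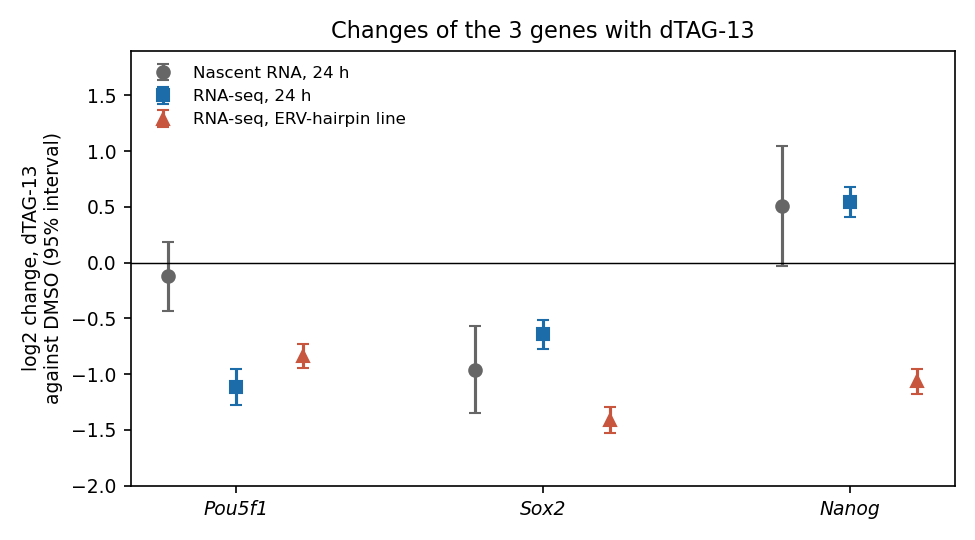
Log2 change with dTAG-13 against DMSO (y axis) of each gene (x axis) in nascent RNA at 24 h (circles), RNA-seq at 24 h (squares) and RNA-seq of the ERV-hairpin line (triangles), with 95% intervals from limma. Nanog lay above 0 in RNA-seq at 24 h (0.54) and below 0 in the hairpin line (-1.06), whereas Sox2 lay below 0 in all 3.

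Across cell types each gene had its own order of levels. Pou5f1 was 1448, 1458 and 1436 TPM in the parental line and listed at 0 in all 3 NPC libraries, so that its order ran from the parental line (mean 1447 TPM) through DMSO (1162), 2 h (1102), 6 h (903), 24 h (537) and 96 h (102) down to NPCs. Sox2 was 419, 413 and 413 TPM in the parental line and 430, 413 and 423 in NPCs, which overlapped at the top of its order, above the tagged line in DMSO (205). Nanog was 270, 269 and 272 in the parental line and 0.405, 0.394 and 0.440 in NPCs. In its order the parental line was followed by 24 h (199), then DMSO, 2 h and 6 h (136, 135 and 125), of which 2 h overlapped with both others, then 96 h (33.0) and NPCs.

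Against the tagged line in DMSO the parental line was higher by a log2 change of 0.32 for Pou5f1 (limma adjusted p = 1.13e-06), 1.02 for Sox2 (2.03-fold, 9.51e-09) and 0.98 for Nanog (1.98-fold, 2.10e-08). All 3 were called, as were 66.0% of 17458 genes, and 97.8% and 97.6% of genes had a lower change than Sox2 and Nanog. The labels of the parental line do not state that feeders were removed, and its summed feeder markers were 103 to 105 TPM, none at 0, against 21.5 to 22.2 TPM with 1 of 8 at 0 in the tagged line, and their part was not tested. In NPCs Sox2 rose by a log2 change of 1.04 (2.06-fold, adjusted p = 6.59e-10) and Nanog fell by 7.23 (adjusted p = 1.29e-14). Both of the genes with a fold were called, as were 89.0% of genes, and for Pou5f1, listed at 0, no fold is given. The labels matched the markers: the 5 neural progenitor markers summed to 3136 to 3189 TPM in NPCs and 60.7 to 62.6 in the tagged line, and the 5 stem cell markers to 1.04 to 1.57 TPM in NPCs and 3059 to 3391 in the tagged line.

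Marker sums also moved along the time course. The stem cell markers (Zfp42, Dppa5a, Fgf4, Esrrb and Tdgf1) summed to 2205 to 2415 TPM at 24 h and 225 to 261 at 96 h. The feeder fibroblast markers, which include the collagen genes Col1a1, Col1a2 and Col3a1, summed to 275 to 298 TPM at 96 h. All 7 that were tested rose there (median log2 change 3.72, against 0.05 over all genes), when 42.9% of all genes rose. Since such genes are not particular to feeders, and the share of each cell type was not measured, their part in the fall of the 3 factors at 96 h was not tested.

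Partners of the 3 factors were read from a list of 15 transcription factors of the pluripotency network. At 24 h 12 of 15 fell in RNA-seq and 0 rose (median log2 change -0.65, against 0.13 over all genes), when 25.0% of all genes fell and 42.9% rose. The split of all genes depended on the scaling: with each library centered on its median gene 44.1% fell and 25.9% rose at 24 h, and 15 of 15 partners fell. Nr0b1, an orphan nuclear receptor that binds OCT4, fell from 27.8 to 3.43 TPM, and Klf4, one of the reprogramming factors, from 44.1 to 11.6. Klf5 fell from 90.9 to 33.4 TPM and Nr5a2, a nuclear receptor that activates Pou5f1, from 12.7 to 6.06. At 6 h 10 fell and 1 rose (median -0.21, against 0.03), when 15.5% of all genes fell and 18.4% rose (26.3% and 11.3% when centered). At 96 h 12 fell and 2 rose (median -1.83, against 0.05), when 37.4% of all genes fell and 42.9% rose (48.6% and 33.7% when centered). At 96 h Esrrb, an estrogen-related receptor, fell from 108 to 6.84 TPM.

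In nascent RNA 5 of 14 partners fell at 24 h and 1 rose (median -0.16, against 0.21 over all genes), when 5.59% of all genes fell and 32.3% rose. When centered, 9 of 14 fell and 0 rose, against 16.8% and 13.9% of all genes. They included Nr0b1 (2.24 to 0.261 FPKM, log2 change -1.84) and Klf4 (log2 change -1.02). At 2 h 1 of the 14, Nr5a2, was called and rose, from 0.373 to 0.972 FPKM (log2 change 0.75, limma adjusted p = 0.00287), when 1.58% of all genes rose. When centered, 3 of the 14 rose, for which the share of all genes is not given here. In the hairpin line 12 of 15 fell with dTAG-13 and 0 rose (median -1.08, against 0.14), when 12.8% of all genes fell and 41.2% rose (29.6% and 25.9% when centered). When Dox was added 12 rose and 0 fell (median 1.24, against -0.04), when 17.5% of all genes rose and 29.3% fell (28.3% and 25.5% when centered). Nr0b1 went from 12.4 to 0.654 and back to 11.9 TPM, and Prdm14 from 2.77 to 0.422 and 2.95.

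A list of 6 genes that OCT4 and SOX2 are known to activate fell as Pou5f1 and Sox2 did. In RNA-seq 5 of 6 fell at 6 h (median -0.40, against 0.03 over all genes, of which 15.5% fell), 6 of 6 at 24 h (median -0.77, against 0.13 and 25.0%) and 6 of 6 at 96 h (median -3.07, against 0.05 and 37.4%). At 24 h Zfp42, which encodes the stem cell marker REX1, fell from 130 to 53.9 TPM, Fbxo15 from 110 to 61.8, and the growth factor gene Fgf4 from 134 to 77.5. Fgf4 stood at 1.86 TPM at 96 h. In nascent RNA 3 of 6 fell at 24 h (median -0.34, against 0.21 over all genes, of which 5.59% fell), with Fgf4 at 4.07 FPKM in DMSO and 1.64 at 24 h (log2 change -1.09). In the hairpin line 6 of 6 fell with dTAG-13 (median -0.64, when 12.8% of all genes fell), and 5 of 6 rose when Dox was added (median 0.66, when 17.5% of all genes rose).

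Of 10 lineage genes, which mark the cell types mESCs can form, 5 fell and 1 rose at 24 h (median -0.40), and 5 rose and 4 fell at 96 h (median 0.41, against 0.05 over all genes). The 6 of 10 called at 24 h and 9 of 10 at 96 h stood near the 67.9% and 80.3% of all genes called. When centered, 7 fell and 0 rose at 24 h, beside the centered shares of all genes given above with the partners. The risers at 96 h were led by the endoderm gene Sox17 (0.853 to 22.9 TPM), the mesoderm and trophoblast gene Hand1 (7.24 to 63.7) and the endoderm gene Gata6 (1.41 to 7.25), while the neural gene Sox1 fell from 5.28 to 1.08. In the hairpin line 3 rose and 3 fell of 9 tested, when 54.0% of all genes were called, Sox17 going from 0.577 to 3.91 TPM with dTAG-13 and to 0.879 with Dox. Of the POU and SOX relatives of the factors, 2 rose and 3 fell of 10 at 24 h, when 42.9% of all genes rose and 25.0% fell. Pou3f1, which encodes OCT6, fell from 85.6 to 40.4 TPM. When centered, 1 rose and 8 fell, beside the same centered shares. In NPCs 9 of 12 rose and 2 fell, when 89.0% of all genes were called and 49.5% rose (36.7% when centered), the largest changes being those of Pou3f3 (0.133 to 117 TPM) and Pou3f2 (0.145 to 45.3).

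Genes beside the factors moved in both directions. Slc2a3, a glucose transporter gene next to Nanog, holds MED23 peaks described below within its span. Which gene those peaks serve was not tested. Slc2a3 fell from 468 TPM in DMSO to 409 at 2 h (log2 change -0.19, limma adjusted p = 0.0427) and 341 at 6 h (-0.46, adjusted p = 0.000120). It then rose above DMSO, to 816 TPM at 24 h (log2 change 0.80, limma adjusted p = 4.11e-08) and stood at 1360 at 96 h (1.54). In nascent RNA it rose at 24 h as well (2.11 to 3.06 FPKM, log2 change 0.46, adjusted p = 0.00551), and in the hairpin line it rose with dTAG-13 (411 to 488 TPM, 0.25) where Nanog fell. Beside Pou5f1, Psors1c2 fell from 14.0 to 5.34 TPM at 24 h, Cchcr1 rose from 25.3 to 31.6 and Tcf19 was not called (8.99 and 9.33 TPM). The long RNA Sox2ot, which spans Sox2 on the same strand so that their reads can be shared, fell at 96 h (1.12 to 0.0843 TPM, log2 change -1.39), was lower with dTAG-13 in the hairpin line (1.55 to 0.619) and rose in NPCs (1.12 to 36.4). Gm27611, a short annotated gene past the end of Sox2, fell in nascent RNA at 24 h (15.7 to 2.84 FPKM, log2 change -2.83, adjusted p = 0.0157). It spans only chr3:34653178-34653285, so fewer reads lie behind its FPKM than behind an equal FPKM of the 3 genes. Pou5f1 holds the antisense gene Gm19553 and both Pou5f1 and Nanog have pseudogene copies elsewhere, which the tables may count in part.

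Within 50 kb of each of the 3 genes the strongest MED23 peak ranked near the top genome-wide in DMSO. The highest value there was lower after 24 h of dTAG-13. The highest fold enrichment over the background of the peak caller within 50 kb of the gene was 30.7 and 31.6 near Pou5f1 in the DMSO libraries and 9.09 and 9.68 with dTAG-13. It was 35.7 and 35.9 near Sox2, against 13.1 and 15.4, and 27.1 and 26.1 near Nanog, against 11.8 and 11.9. The Nanog values do not follow a single peak. Their summits lay within the neighboring gene Slc2a3, at 35.2 kb from the Nanog start in both DMSO libraries and dTAG-13 replicate 2. In dTAG-13 replicate 1 the highest peak had its summit at 58.9 kb, past the edge of the window, into which only a part of the peak reached. In the region around 35.4 kb that library had 9.69. No dTAG-13 library overlapped with DMSO, but 2 against 2 libraries cannot go below p = 0.333 in an exact permutation test (adjusted over 12 comparisons, 0.4), and the same order held for 94.4% of 17418 genes. The dTAG-13 libraries held fewer MED23 peaks altogether, 15335 and 14551 against 63045 and 58925.

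Set against other genes, the differences in MED23 were ordinary in size. The ratio of the DMSO mean to the dTAG-13 mean was 3.32 for Pou5f1, 2.52 for Sox2 and 2.24 for Nanog, against a median of 2.57 over 12038 genes with a peak in all 4 libraries. The ratio was larger in 28.9%, 51.6% and 61.6% of those genes. By rank, which the number of peaks also affects, the highest peak near Pou5f1 was in the top 1.83% and 1.76% of its library in DMSO. With dTAG-13 it was in the top 16.0% and 15.5%. The summit was not the same, at -0.914 and -0.885 kb in DMSO and at -1.95 and -1.94 kb with dTAG-13. For Sox2 the rank went from 1.27% and 1.29% to 7.87% and 6.10%. For Nanog, whose highest peak changed site in dTAG-13 replicate 1, it went from 2.39% and 2.62% to 9.55% and 10.1%. Within 1 kb of the gene start the ratio was 4.12 for Pou5f1 and 1.71 for Nanog. The median there was 2.89 over 3706 genes with a peak in all 4 libraries, of which 23.5% and 84.6% had a larger ratio. Sox2 had no peak there in dTAG-13 replicate 2.

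MED23 peaks at single regions were lost in part. Over the genome 49.3% of 69111 MED23 regions were present in both DMSO and in no dTAG-13 library, and 16.1% were present in all 4. Of 16 MED23 regions near Pou5f1, 11 were present in both DMSO and in no dTAG-13 library, and 1 was present in all 4, the promoter-proximal region chr17:35503489-35506514 whose sequence is printed above. Near Sox2 6 of 15 were lost in this sense and 3 were in all 4 libraries. The downstream region that holds the printed composite motif (chr3:34652504-34655243) kept 13.1 and 15.4 of its 35.7 and 35.9, and a region around 18.0 kb (chr3:34667763-34669087) went from 26.3 and 28.5 to 5.80 and 5.47. The region across the Sox2 promoter (chr3:34647978-34651850) went from 19.0 and 19.6 to 3.82 in 1 library and no peak in the other.

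Near Nanog 5 of 16 regions were lost and 6 were in all 4 libraries. The region at -4.46 kb (chr6:122701974-122704079) went from 24.9 and 20.7 to 8.65 and 7.79, and that over the gene start, whose composite motif is printed above, from 11.6 and 11.2 to 6.37 and 6.97. Within Slc2a3, the region at 35.4 kb (chr6:122741720-122744139) went from 27.1 and 26.1 to 9.69 and 11.9. The region at 51.4 kb (chr6:122758583-122759258) was at 6.77 and 8.34 in DMSO and 7.36 and 7.25 with dTAG-13, which overlap, and that at 58.1 kb (chr6:122763603-122767552) at 12.7 and 12.6 against 11.8 and 10.6. Of these regions, 2 near Pou5f1, 4 near Sox2 and 6 near Nanog lay in super-enhancers listed by the study.

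RNAPII peaks took a different course at each of the 3 genes. At Pou5f1 the peak at the gene start had a fold enrichment of 6.26 and 6.66 in DMSO and was called in neither dTAG-13 library. At Sox2 the peak at the start went from 16.8 and 16.0 to 8.61 and 5.28, and the peak in the downstream MED23 region from 8.24 and 7.33 to none. Within 10 kb of Nanog the highest peak, in the MED23 region centered at -4.46 kb, was 7.82 and 6.31 in DMSO and 10.4 and 7.27 with dTAG-13, which overlap, and the peak within Slc2a3 went from 15.3 and 16.3 to 12.9 and 12.5. At the Nanog start 1 DMSO library had a peak (3.97) and no other library did.

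The highest RNAPII peak within 50 kb was lower in both dTAG-13 libraries for 3 of 3 genes, as for 88.6% of 15207 genes. Pou5f1, with a peak in both DMSO libraries and in no dTAG-13 library, was 1 of 3, against 21.3% of 14726 genes. Within 1 kb of the gene start, where the Pou5f1 peak lay, the same held for 3683 of 9415 genes. That peak was in the top 41.6% and 37.3% of RNAPII peaks in DMSO. At the gene start 2 of 3 genes were lower in every dTAG-13 library, against 85.1% of 10055 genes. The ratio of the DMSO mean to the dTAG-13 mean was 2.36 for Sox2 and 1.25 for Nanog, against a median of 2.04 over 10449 genes. For Nanog the ratio is that of the peak within Slc2a3, the highest in its window in every library, and 85.1% of those genes had a larger one. By rank, which the number of peaks also affects, the peak within Slc2a3 was in the top 9.37% and 7.84% of RNAPII peaks in DMSO and the top 6.61% and 6.13% with dTAG-13, out of 19853 and 19194 peaks against 8182 and 7689.

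The H3K27Ac ratios were smaller than those of MED23, both at the 3 genes and at the median gene. The ratio of the DMSO mean to the dTAG-13 mean was 1.61 for Pou5f1, 1.43 for Sox2 and 1.19 for Nanog. The median was 1.32 over 14157 genes with a peak in all libraries, of which 20.4%, 37.4% and 68.4% had a larger ratio. For MED23 these shares were 28.9%, 51.6% and 61.6%. The highest fold enrichment near Pou5f1 was 10.6, 9.42 and 12.2 in DMSO and 8.22, 7.91 and 3.86 with dTAG-13. Near Sox2 it was 9.41, 6.98 and 9.57, against 6.09, 8.18 and 3.93, and near Nanog 11.5, 14.5 and 11.0, against 7.91, 15.7 and 7.55. The Nanog values mix sites. The peak lay at 58.5 kb in DMSO replicate 1, at 58.2 and 58.1 kb in dTAG-13 replicates 1 and 3, and between -4.56 and -4.13 kb in the others. The summits at 58.1 to 58.5 kb lay past the edge of the window, into which a part of each peak reached. Within 10 kb of Nanog the values were 9.51, 14.5 and 11.0, against 4.03, 15.7 and 4.58. Pou5f1 alone showed no overlap (1 of 3, against 12.1% of 17208 genes), with an exact permutation p of 0.1, the smallest possible for 3 against 3, and p = 0.2 and 0.6 for Sox2 and Nanog (0.4, 0.4 and 0.655 adjusted over 12 comparisons). The numbers of peaks ranged from 88050 to 117475 in DMSO and were 30259, 117348 and 45662 with dTAG-13. The dTAG-13 library with 117348 peaks was the one with the highest values near Sox2 and Nanog among its group.

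H3K9me3 peaks were few near the 3 genes. Near Nanog a peak at around -2 kb (chr6:122704812-122706344 in the first library) was called in all DMSO libraries, with fold enrichments of 3.85, 3.01 and 3.11, and in no dTAG-13 library. Near Pou5f1 a peak at -26.7 kb had 3.10, 3.55 and 3.56 in DMSO and 2.50 in 1 dTAG-13 library, and near Sox2 the only peak was one of 2.47 in dTAG-13 replicate 2. The highest value was lower in every dTAG-13 library for 2 of 3 genes, against 58.2% of 15073 genes, and 1 of 3, Nanog, had a peak in all DMSO and no dTAG-13 libraries, against 31.3% of 11787 genes. The exact permutation p was 0.1 for Pou5f1 and Nanog and 1 for Sox2, and the first dTAG-13 library held 11474 H3K9me3 peaks against 104579 to 147611 in the others.

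**Figure D5:**
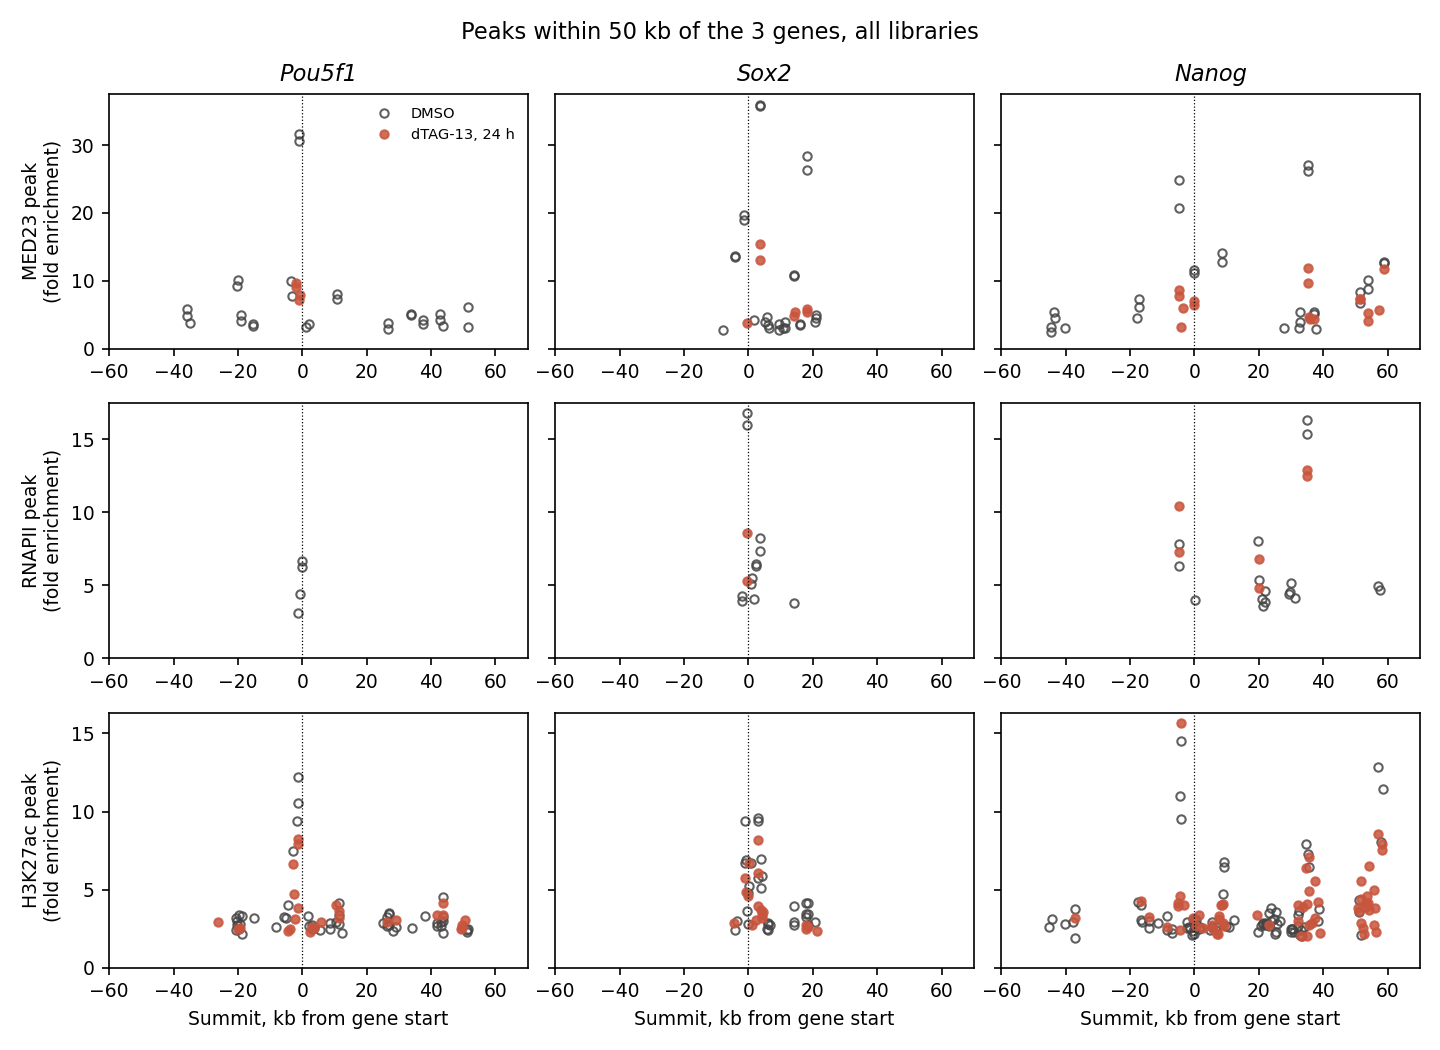
Fold enrichment over the background of the peak caller (y axis, from 0, one scale for each row) of every MED23, RNAPII and H3K27Ac peak within 50 kb of each gene against the distance of its summit from the gene start in kb (x axis), with open points for DMSO and filled points for 24 h of dTAG-13, all libraries overlaid. MED23 points with dTAG-13 lay at 15.4 or lower at all 3 genes, no RNAPII point with dTAG-13 remained near Pou5f1, and near Nanog the RNAPII points with dTAG-13 at -4.68 and -4.74 kb were 10.4 and 7.27.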

How the data were processed

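Reads were processed by the authors with cutadapt 2.4, STAR 2.7.5a, StringTie 2.0.6, HOMER 4.10, BWA, SAMtools, MACS2, GATK 4.1.4.1 and deepTools 3.4.3, as named in their processing notes, and nascent reads with T-to-C conversions were counted per gene. The deposited nascent RNA table holds FPKM scaled by the authors to gene width and counted reads. Values of up to 20 reads lay within 0.1 of a whole read in 100.0% of cases. The deposited RNA-seq tables hold TPM, used here, beside the mean coverage of each gene, used only for depth. Gene IDs listed more than once (6 to 13 per table) were summed. Peaks were called by the authors in every library separately. The deposited peak lists give fold enrichment, used here, and -log10 q, read only to see how far each list reaches. Inputs, Hi-C and single-cell samples were not analysed here.

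For tests across genes, log2 values after adding 0.5 entered moderated linear models (lmFit and trended eBayes of limma 3.58.1, R 4.3.3), with Benjamini-Hochberg adjustment over all genes with at least 0.5 FPKM or 1 TPM in 3 or more libraries. Peaks within 50 kb and TPM ratios were compared by exact permutation. A peak counted as within 50 kb when any part of it lay in that window, so a summit can lie past the edge. The scripts (Python 3.11.15, pandas 2.3.3, pysam 0.24.0) were tested on simulated data. Sequences came from GRCm38.p6 and promoters from RefSeq. The text names the 3 genes in every comparison, Trim28, neighbors within 50 kb, the 3 genes nearest to each by their log2 changes, and up to 4 genes of each list with the largest change among those that passed. One gene that this rule names is not reported here. Members and lists were chosen with earlier results of these data known. Libraries with the same replicate number correlated above 0.1 in 3 of 18, 1 of 30, 0 of 9 and 1 of 9 pairs of the 4 RNA experiments, so the numbers were not treated as pairing the samples. Alternatives were other pseudocounts, filters and centering, the replicate number as a block, other peak windows, ranks, and each library left out in turn.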

Additional observations from a re-analysis of the deposited data

Results flagged for a closer look

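The response of each of the 3 genes to 24 h of dTAG-13 differed between the ERV-hairpin line and the tagged line of the time course in the limma test of the difference itself. The interaction, as the log2 change in the hairpin line minus that in the time course, was 0.28 for Pou5f1 (adjusted p = 0.00936), -0.77 for Sox2 (adjusted p = 3.18e-05) and -1.61 for Nanog (adjusted p = 2.03e-07). All 3 dTAG-13 libraries of each line moved in the direction of their group for each gene. RNA fraction, feeders and clone differ with the line and cannot be told apart from it. No group had more than 3 libraries, so single libraries were not tested as outliers.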

How the results depend on the processing

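Of 882 alternative values of 59 results, 857 kept their direction and, in the limma tests, their side of the threshold. For peaks and ratios only the direction was compared. When each library was centered on its median gene, nascent Sox2 and Nanog at 6 h turned to -0.00249 and -0.0172, Pou5f1 from 6 h to 24 h passed (-0.54), and so did Nanog mRNA at 6 h (-0.22). Scaled without the reads on Gm26917, chosen after seeing the data, nascent Sox2 and Nanog at 6 h were -0.0880 and -0.0879, and Sox2 at 24 h was -1.25. With no filter on low values Sox2 mRNA at 6 h was -0.19 and missed the test. Near Nanog the RNAPII difference of -3.14 became 1.78 within 10 kb and 2.24 by rank in percent. With 1 library left out, nascent Sox2 at 6 h ran from -0.0859 to 0.203, nascent Nanog at 6 h from -0.149 to 0.311, nascent Pou5f1 at 24 h from -0.208 to 0.0126 and from 6 h to 24 h from -0.404 to -0.311, Nanog mRNA at 2 h from -0.0729 to 0.0329, Sox2 mRNA at 6 h from -0.220 to -0.160, and H3K9me3 near Sox2 from 0 to 1.23. None of the nascent values at 6 h or of Nanog mRNA at 2 h was called. With the replicate number as a block, which the numbers do not justify as a pairing, nascent Sox2 at 24 h was -0.96 (limma adjusted p = 0.00627), Nanog mRNA at 24 h was 0.54 (adjusted p = 1.71e-05), and no call of the 3 genes changed.

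Counts over all genes moved more than the 3 genes did. In nascent RNA, 474 genes were called at 2 h, against 164 and 71 without DMSO replicates 1 and 2, 64, 72 and 754 without 2 h replicates 1, 2 and 3, 300 and 252 without replicate 1 at 6 h or at 24 h, and 982 without the reads on Gm26917. The 1214 at 6 h became 291 and 226 without DMSO replicates 1 and 2, 180, 765 and 456 without 6 h replicates 1, 2 and 3, and 741 without 24 h replicate 1. The 3702 from 6 h to 24 h became 2200, 2079 and 2425 without 24 h replicates 1, 2 and 3. With no filter, 8234 genes in place of 5063 were called at 24 h and 5886 in place of 3702 from 6 h to 24 h. A mean of at least 5 FPKM left 1204 genes, Nanog not among them, with 32, 29, 201 and 186 calls in the 4 comparisons. In RNA-seq the 2736 at 2 h became 1666 and 1739 without DMSO replicates 1 and 2. Peak heights rest on 2 or 3 libraries, and those without a called peak count as 0.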
